A study of Danio rerio with 6 samples.

Results

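G proteins and the enzymes that act below them were measured in whole brains of aged female zebrafish that had or had not been exposed to lead as embryos. A target (a transcript or expressed sequence read by up to 3 probes) was included when its symbol began like those of certain families. These were heterotrimeric G protein subunits, regulators of G protein signalling, adenylyl cyclases and cyclic nucleotide phosphodiesterases. Kinases of the A, C, AMP-activated, MAP and calcium/calmodulin families were the others. Of 38489 targets 100 carried such a symbol. Of these, 15 were set aside, the photoreceptor genes named gnat, gngt and pde6 and the calcium/calmodulin kinase 2 genes. This left 85 targets under 66 symbols, of which 26 came from RefSeq, 53 from the OTTDART transcript set and 6 from the ENSDART set. Among the 85, 8 belong to a ligand, its receptor, an adaptor or binding proteins, whose symbols only begin that way. For 31 targets the RefSeq table now uses another symbol, given in brackets where it matters.

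The lead group was 3 brains of AB strain females at 12 months of age that had been kept in lead acetate at 100 ppb from before 2 hours to 72 hours after fertilization. The control group was 3 brains of AB strain females of the same age kept at 0 ppb over the same hours. Both groups were raised without lead after that window, and each array carried the RNA of 1 brain. All values below are log2 of the deposited intensity, all differences are lead minus control on that scale, and n = 3 brains per group. The value after ± is the moderated standard error of limma, which also draws on the spread of all targets.

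Receptors on the cell surface act through G proteins, whose alpha subunit separates from the beta and gamma subunits when it binds GTP. The freed subunits set the activity of adenylyl cyclases, phospholipases and ion channels, and RGS proteins end the signal by speeding GTP hydrolysis. Cyclic AMP activates protein kinase A, calcium and diacylglycerol activate protein kinase C, and MAP kinase cascades carry signals from the membrane to the nucleus. In the brain these routes act at synapses and in memory, and protein kinase C has long been studied as a target of lead.

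The comparison asks whether lead in early development is followed by other levels of these transcripts in the aged female brain. None of the 85 targets passed the adjusted test. The smallest unadjusted p-values belonged to rgs3a, whose protein restrains G protein signals, at 0.36 ± 0.13, to map3k7ip2 (tab2), an adaptor of the MAP kinase kinase kinase Map3k7, at −0.49 ± 0.19, and to prkcbp1l, named for binding protein kinase C, at 0.38 ± 0.15. All 85 differences were smaller than 1.5-fold in either direction, as were 96.1% of all targets. They ran from −0.49 to 0.38, with 37 above and 48 below 0 (50.5% of all targets were above), and their median was −0.02 against 0.00 for all targets. Without lead replicate 3 that median was 0.02, with 47 above 0.

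In limma the lowest adjusted p of the 85 was 0.958, so 0 of them passed 0.05, as did 0.00% of all targets. On simulated arrays this adjusted test found 0% of targets set to 1.5-fold and 10% of those set to 2-fold. It would thus mostly miss changes of that size. At an unadjusted p under 0.05 there were 3, or 3.53%, where all targets gave 4.41%. Of the 3, 2 were higher and 1 was lower in lead brains, against 2.57% of all targets higher and 1.83% lower. The 8 targets that only share the start of a symbol held 2 of the 3, map3k7ip2 and prkcbp1l. Of these 8, 2 were above and 6 below 0, with a median of −0.105. The ordinary test without moderation gave 1 of the 85, or 1.18%, against 4.3% of all targets. The 2 groups did not overlap in 4 of the 85 targets, or 4.71%, against 9.49% of all targets. Lead brains were the higher group in 3 of the 4 and the lower in 1, where all targets gave 5.74% and 3.75%. The count of 3 was 1 without lead replicate 2, 0 without lead replicate 3, 7 without control replicate 2 and 0 without control replicate 3. All targets gave 5.34%, 4.47%, 8.05% and 2.79% in these 4 fits, so the 7, or 8.24%, lay near the share of all targets.

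The precision of each value is shown by its 95% interval in limma. In 49 of the 85 targets the whole interval lay inside a 1.5-fold change, or 57.6%, against 50.2% of all targets. Of the 85 targets 64 lay on all 6 arrays above the background, taken as the 95th percentile of random-sequence probes, 12 lay under it on all 6, and 9 lay above it on some. These probes are called random probes below. Among the 64, the interval lay inside 1.5-fold for 41, where all targets above the random probes gave 57.9%, and 38 differences were under 0.1 in size. At an unadjusted p under 0.05 there were 2 of the 64, against 3.97% of all targets above the random probes, and the groups did not overlap in 2, against 10.0%. The median spread between brains of one group was 0.22 for the 85 targets and 0.22 for all targets (SD, log2).

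**Figure D1:**
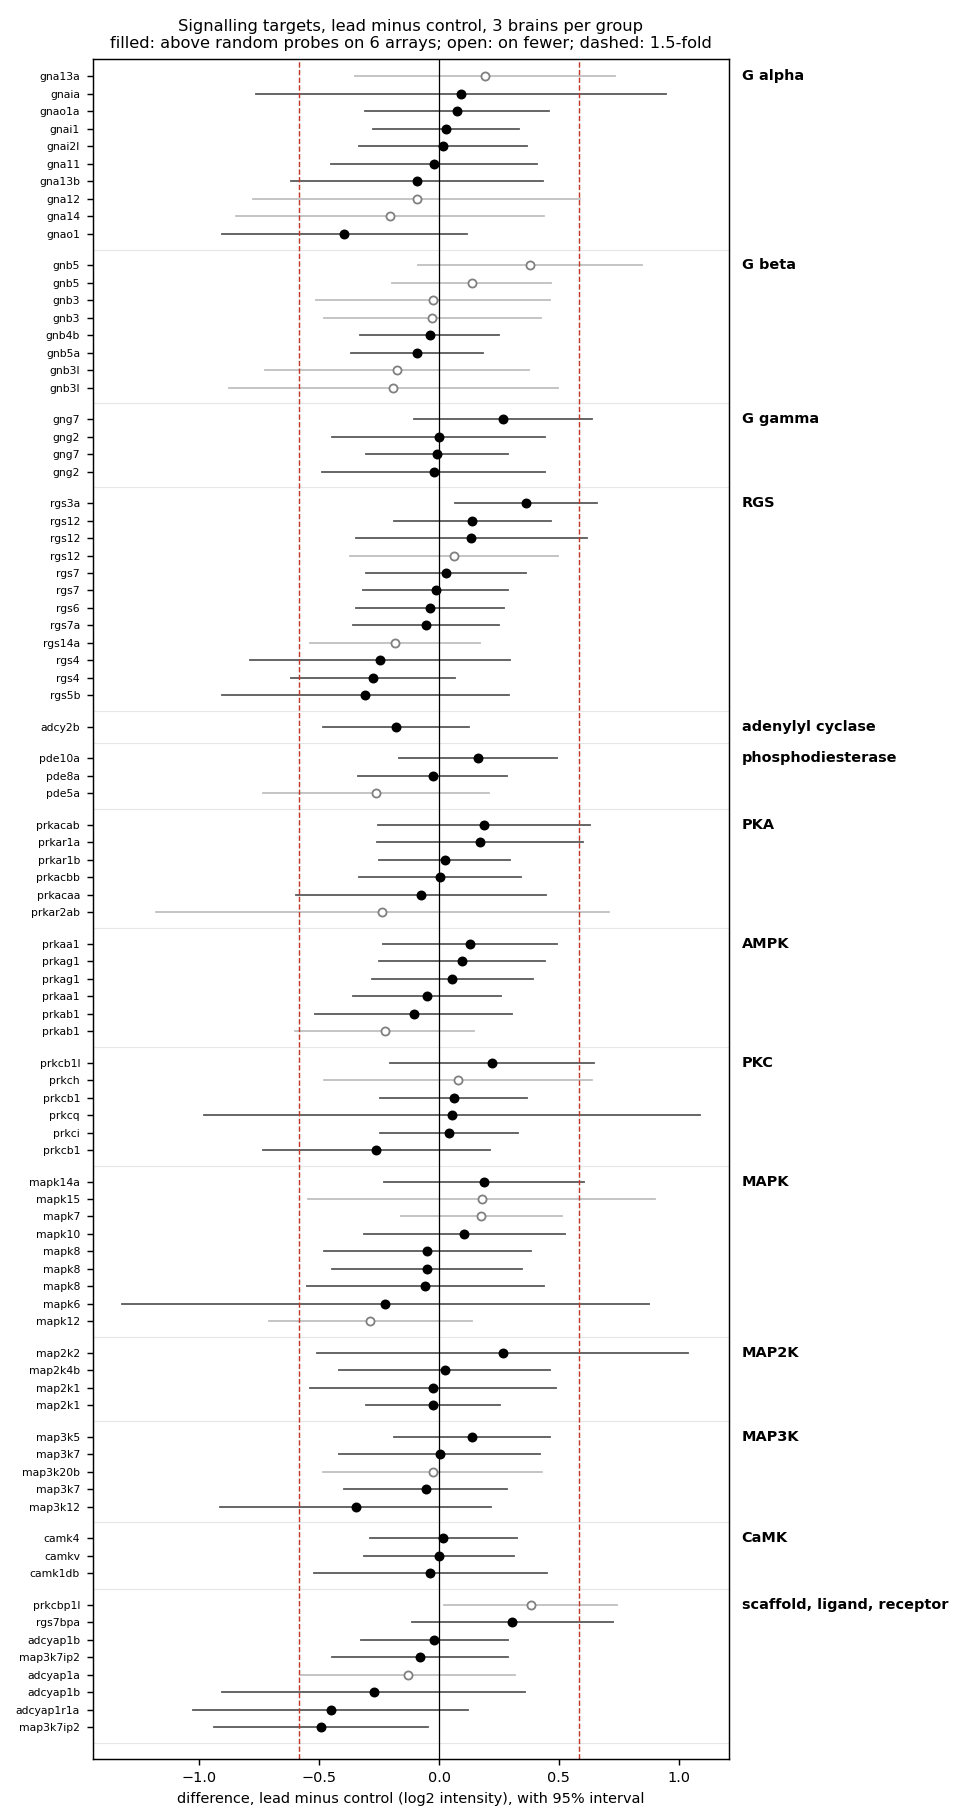
Difference between lead and control brains on the log2 scale (x axis) for each of the 85 targets (y axis, by class, with the symbol), with the 95% interval from limma and n = 3 brains per group. Filled points lay above the random probes on 6 arrays, and all points lie between the dashed lines at 1.5-fold.

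Among G alpha subunits, which bind GTP and choose the effector, 5 of 10 targets were above and 5 below 0, with none at an unadjusted p under 0.05. The inhibitory subunit gnai1 had values of 14.31, 14.28 and 14.08 in lead brains and 14.15, 14.15 and 14.28 in control brains, a difference of 0.03 ± 0.13. All control values lay inside the lead range. Its relative gnai2l (gnai2a) differed by 0.02 ± 0.15, and gna11 (gna11a), which couples receptors to phospholipase C, by −0.02 ± 0.18. The smallest p of the class was that of gnao1 (target OTTDART00000015678). Its protein is the most abundant G alpha of vertebrate neurons. It stood at 13.72, 13.51 and 14.04 in lead brains and 13.84, 14.14 and 14.48 in control brains, or −0.40 ± 0.22. The highest lead value lay between the control values, and a second target of the same gene, gnao1a (NM_200787, Zv7 chromosome 18, 11157401 to 11339587), stood at 0.07 ± 0.16. Of the remaining alpha subunits, gna13b was at −0.09 ± 0.22, while gna12 lay above the random probes on 3 arrays and gna13a on 1. The gnaia target, of another inhibitory subunit, spread widely at 12.07, 11.28 and 11.92 in lead brains and 12.38, 11.54 and 11.08 in control brains, or 0.09 ± 0.36. The gna14 target lay under the random probes on all arrays.

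G beta and G gamma subunits form the second arm of the G protein. The gnb4b target was at −0.04 ± 0.12, and gnb5a, whose protein pairs with RGS proteins of the Rgs7 kind, at −0.09 ± 0.12. A target of gnb5 (gnb5b, OTTDART00000016678) was one of the 4 without overlap, at 10.30, 10.95 and 10.46 in lead brains and 10.02, 10.27 and 10.28 in control brains. The gap between the groups was narrow, its difference was 0.38 ± 0.20, and only 2 arrays per group lay above the random probes. It was 0.19 without lead replicate 2 and 0.77 with the median of the deposited probe values (unadjusted p 0.0231 in limma), and without lead replicate 1 its unadjusted p was 0.0454. The other gnb5 target was at 0.14 ± 0.14 with 1 array per group above them. The 4 targets of gnb3 and gnb3l, genes of cone photoreceptors that were not set aside, lay above the random probes on 3 arrays at most. Of the gamma subunits, gng2 was at −0.02 ± 0.20 and 0.00 ± 0.19 in its 2 targets. For gng7, a subunit of the striatum in mammals, the targets stood at 0.27 ± 0.16 and −0.01 ± 0.13.

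Among RGS genes, 5 of 12 targets were above and 7 below 0, and rgs3a passed an unadjusted p of 0.05. Values of rgs3a (NM_001003629, Zv7_scaffold2619, 76194 to 96879) were 14.71, 14.68 and 14.82 in lead brains and 14.42, 14.46 and 14.25 in control brains. All lead values lay above all control values. The difference of 0.36 ± 0.13 is 1.29-fold, with an unadjusted p of 0.0238 and an adjusted p of 0.958 in limma. Its 3 probes were unequal, at 0.47, 0.41 and −0.03. Its unadjusted p ran from 0.00915 in the ordinary test to 0.0781 without lead replicate 3, so it crossed 0.05 between these settings.

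The neuronal gene rgs4, which acts on inhibitory and Gq signals, had values below 0 in both targets. The first (OTTDART00000024799) stood at 13.23, 13.07 and 13.45 in lead brains and 13.52, 13.62 and 13.43 in control brains, or −0.27 ± 0.14, and the second at −0.24 ± 0.23. Lead replicate 3 reached into the control range in the first target, and lead replicates 1 and 3 did in the second. Transcripts of rgs5b, an RGS gene of vessel wall cells in mammals, were at −0.31 ± 0.25. Genes of the subfamily that pairs with Gnb5 lay closer to 0. Its members were rgs6 at −0.04 ± 0.13 and the 3 targets of rgs7 and rgs7a between −0.05 and 0.03. The rgs7bpa target, whose protein anchors that subfamily at the membrane, was at 0.31 ± 0.18. Its values were 11.84, 12.00 and 11.67 in lead brains and 11.43, 11.83 and 11.33 in control brains, so control replicate 2 lay within the lead range. Of the rgs12 (rgs12b) targets, 2 stood at 0.14 and 0.13, and the other, like rgs14a, lay under the random probes on all arrays.

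**Figure D2:**
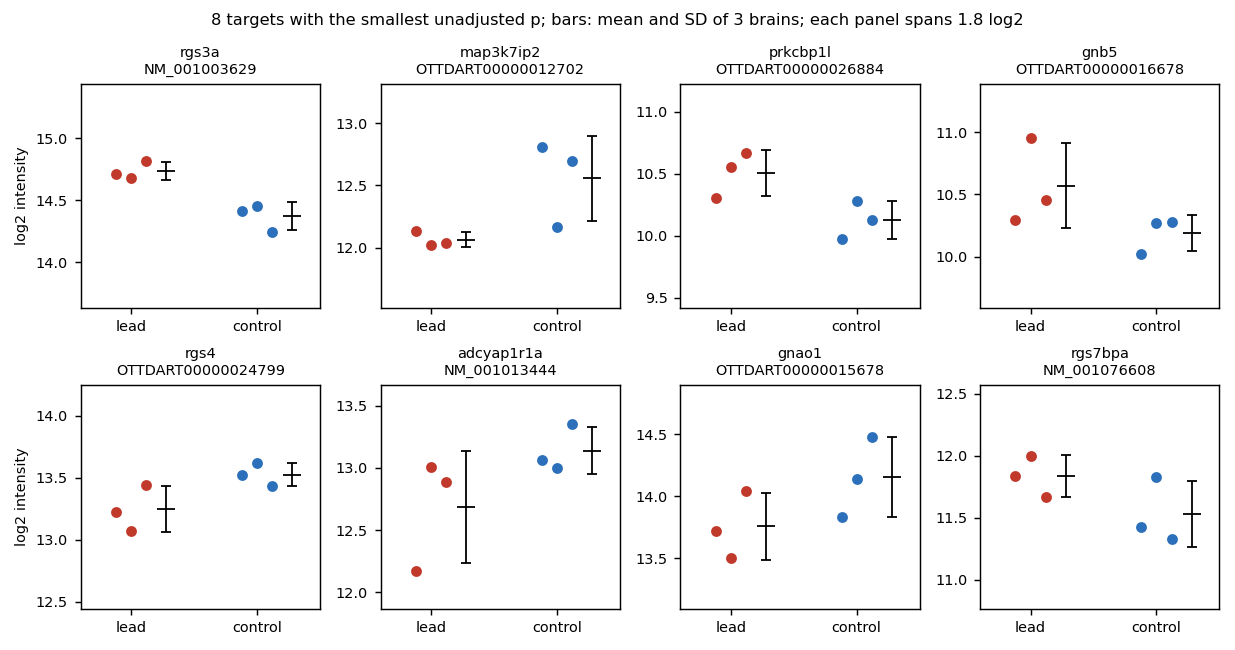
Log2 intensity (y axis) of each brain, lead on the left and control on the right, for the 8 targets with the smallest unadjusted p, with the mean and SD of 3 brains per group and 1.8 log2 units per panel. The groups are apart in rgs3a, and by narrow gaps in map3k7ip2, prkcbp1l and gnb5, while they overlap in the other 4.

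Synthesis and breakdown of cyclic nucleotides were represented by few targets, as only symbols in lower case were taken. Further targets named ADCY or PDE in capitals were read separately, and were chosen after the data were seen. Those of PDE1A, PDE3B and PDE7A were all higher in lead brains, by 0.01 to 0.40. Some PDE1A targets lay under the random probes on all arrays. ADCY6 stood at −0.26, and ADCY8 targets ran from −0.17 to 0.12. None of these had an unadjusted p under 0.05 in limma. The adenylyl cyclase adcy2b stood at 13.97, 14.17 and 14.01 in lead brains and 14.24, 14.13 and 14.32 in control brains, or −0.18 ± 0.13 (95% interval −0.48 to 0.12). Only lead replicate 2 lay inside the control range. The phosphodiesterase pde10a, an enzyme of striatal neurons in mammals, was at 0.16 ± 0.14, pde8a, which breaks down cyclic AMP, at −0.03 ± 0.13, and the pde5a (pde5ab) target lay under the random probes on all arrays. Upstream, the gene of the neuropeptide PACAP, named for activating adenylyl cyclase, also falls under the symbol pattern. Its gene adcyap1b was at −0.02 ± 0.13 and −0.27 ± 0.27 in 2 targets, and adcyap1a lay under the random probes. The PACAP receptor gene adcyap1r1a (NM_001013444) stood at 12.17, 13.01 and 12.88 in lead brains and 13.06, 13.00 and 13.36 in control brains. Lead replicate 1 was the lowest by far, lead replicate 2 lay just above the lowest control, and the difference was −0.45 ± 0.24.

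Protein kinase A holds regulatory subunits that release catalytic subunits when they bind cyclic AMP. The brain regulatory subunit prkar1b (NM_001076623) had the narrowest interval of these 6 targets, −0.25 to 0.30. Its values were 14.96, 15.05 and 14.94 in lead brains and 14.92, 14.97 and 14.99 in control brains. Of the catalytic subunits, prkacbb was at 0.00 ± 0.14, prkacaa at −0.08 ± 0.22 and prkacab at 0.19 ± 0.19. The regulatory prkar1a (prkar1aa) was at 0.17 ± 0.18. The prkar2ab target, at −0.24 ± 0.40, lay above the random probes on 2 control arrays and on 0 lead arrays. That background level differed by array. Lead replicate 1 at 10.02 lay under its level of 10.357, and control replicate 2 at 10.02 lay above its level of 9.971. The AMP-activated kinase senses the energy state of the cell. Its catalytic prkaa1 stood at 0.13 ± 0.15 and −0.05 ± 0.13, the regulatory prkag1 at 0.10 ± 0.15 and 0.05 ± 0.14, and the scaffold subunit prkab1 (prkab1b, OTTDART00000025827) at −0.11 ± 0.17. A second prkab1 target lay under the random probes.

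Of protein kinase C genes, 5 of 6 targets were above 0 with a median of 0.06, and none had an unadjusted p under 0.05. Leaving out 1 array gave medians between 0.028 and 0.113, and 3 of 6 above 0 without control replicate 1. The atypical, calcium-independent isoform prkci was at 0.04 ± 0.12. The calcium-dependent beta isoform prkcb1 (prkcbb) was at 0.06 ± 0.13 in one target (ENSDART00000029451) and −0.26 ± 0.20 in the other, and its paralog prkcb1l (prkcba) at 0.22 ± 0.18. The values of prkcb1l were 12.35, 12.51 and 12.02 in lead brains and 12.24, 11.85 and 12.13 in control brains, with lead replicate 3 inside the control range. The prkch target lay under the random probes on all arrays.

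In the MAP kinase cascades a kinase kinase kinase activates a kinase kinase, which activates the MAP kinase. At the top, the stress kinase map3k5 was at 0.14 ± 0.14 and map3k7 at −0.06 ± 0.14 and 0.00 ± 0.18 in 2 targets. The axonal injury kinase map3k12 stood at 12.05, 11.81 and 12.46 in lead brains and 12.24, 12.27 and 12.86 in control brains, or −0.35 ± 0.24, with overlap. It was −0.15 without control replicate 3, −0.20 without lead replicate 2 and −0.53 without lead replicate 3. In the middle tier, map2k1, which activates Erk, was at −0.03 ± 0.12 and −0.03 ± 0.22, and the stress-route kinase map2k4b at 0.02 ± 0.19. Below them, the Jun kinase mapk8 (mapk8b) stood between −0.06 and −0.05 in its 3 targets, the neuronal Jun kinase mapk10 at 0.11 ± 0.18 and the p38 kinase mapk14a at 0.19 ± 0.18. The map3k20b, mapk12 and mapk15 targets lay under the random probes on all arrays, and mapk7 lay above them on 3.

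The adaptor map3k7ip2 (tab2), which brings Map3k7 to activated receptor complexes, had the largest difference in size of the 85. Its target OTTDART00000012702 stood at 12.13, 12.02 and 12.04 in lead brains and 12.81, 12.17 and 12.69 in control brains. The lead brains lay close together, and control replicate 2 lay just above them. The difference was −0.49 ± 0.19, or 0.71 of the control level, with an unadjusted p of 0.0345 and an adjusted p of 0.958 in limma. All 3 of its probes were lower in lead brains, at −0.40, −0.42 and −0.33, each smaller in size than the target's −0.49. A second target of the gene (OTTDART00000012703) was at −0.08 ± 0.16, and one of its probes stood at 0.74. The unadjusted p of the first target ran from 0.0028 without control replicate 2 to 0.168 with the median of the deposited probe values. With those medians the difference was −0.325 and the groups overlapped, lead replicate 1 at 12.40 lying above control replicate 2 at 12.17.

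The prkcbp1l target (OTTDART00000026884) had values of 10.30, 10.56 and 10.66 in lead brains and 9.97, 10.28 and 10.13 in control brains. Of its 3 probes, those at 0.51 and 0.46 were higher in lead brains and the other was lower, at −0.42. That lower probe read only 7.35 to 8.52, under the random-probe level on every array (9.889 to 10.357). The groups were apart by a narrow gap, and 2 arrays of each group lay above the random probes. Its difference was 0.38 ± 0.15, with an unadjusted p of 0.0415 and an adjusted p of 0.958 in limma, and it missed 0.05 in the ordinary test, at 0.0503, and without any one of lead replicates 2 and 3 and control replicates 1 and 3, at up to 0.132.

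The calcium/calmodulin kinases, which respond to calcium entry at active synapses, gave some of the smallest differences. The nuclear kinase camk4 stood at 14.31, 14.21 and 14.40 in lead brains and 14.20, 14.43 and 14.25 in control brains, or 0.02 ± 0.13. The kinase-like camkv (camkvb) was at 0.00 ± 0.13 and camk1db at −0.04 ± 0.21, and the 95% interval of all 3 targets lay inside 1.5-fold.

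Several genes were read by more than one target. By current symbol, 14 genes had at least 2 targets above the random probes on all arrays. In 8 of the 14 the targets lay within 0.1 of each other, and in 8 all targets had the same sign. The closest were map2k1, with 0.00 between its targets, rgs12b, mapk8b and gng2. The widest were gnao1a, with 0.47 between the lowest and the highest, tab2 with 0.41 and prkcbb with 0.32. Differences between targets of one gene were not tested.

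**Figure D3:**
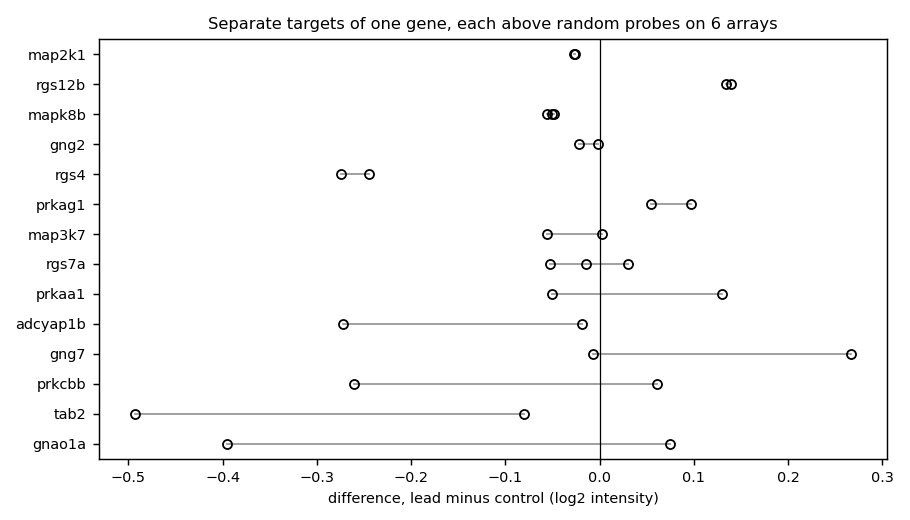
Difference between lead and control brains on the log2 scale (x axis) for separate targets of the 14 genes with at least 2 targets above the random probes on 6 arrays (y axis, current symbols). Each circle is 1 target, and the line joins the lowest to the highest, from 0.00 apart in map2k1 to 0.47 in gnao1a.

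Some members spread widely between single brains. The largest SD over the 6 arrays was that of mapk6, which encodes the atypical MAP kinase Erk3. It stood at 12.88, 11.56 and 11.41 in lead brains and 12.73, 11.48 and 12.32 in control brains. Lead replicate 1 and control replicates 1 and 3 were high, and the same 3 arrays were high in all 3 probes. The protein kinase C theta gene prkcq came next, at 11.10, 12.41 and 11.22 in lead brains and 11.25, 12.25 and 11.06 in control brains. One brain in each group, replicate 2, was high, again in all 3 probes. With these spreads the 95% interval of the group difference was −1.32 to 0.88 for mapk6 and −0.98 to 1.09 for prkcq. Both intervals reached past 1.5-fold in both directions, where 49 of the 85 intervals lay wholly inside it. For map2k2 (map2k2a), which also activates Erk, control replicate 1 stood apart at 13.12, with the other 2 controls at 14.29 and 14.04 and the lead brains at 13.69, 14.29 and 14.26. In prkar2ab control replicate 3 was high at 11.18, in 2 of its 3 probes.

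**Figure D4:**
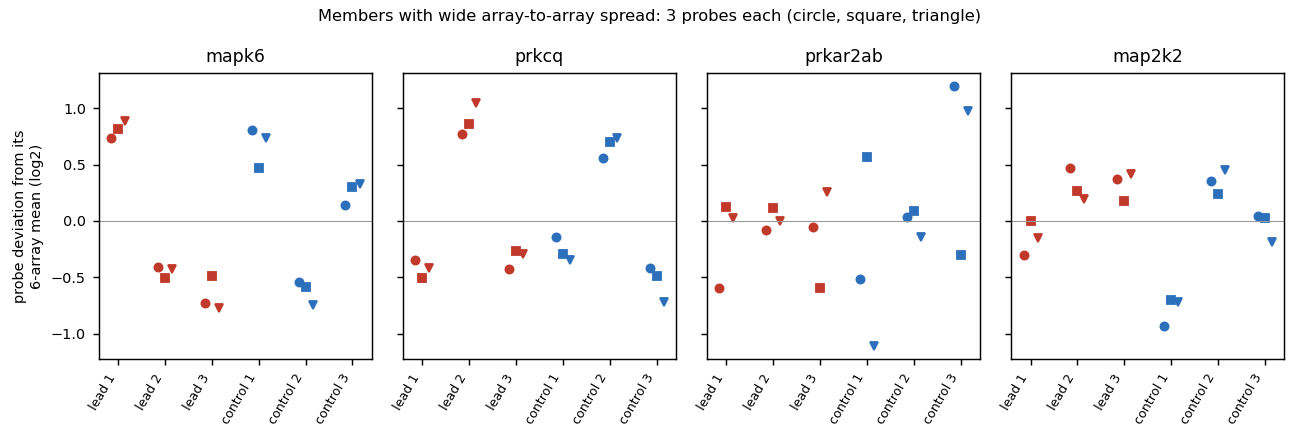
Deviation of each probe from its own 6-array mean on the log2 scale (y axis) for each array (x axis, lead then control) in 4 members, with 3 probes per member drawn as circle, square and triangle. The probes move together in mapk6, prkcq and map2k2, and apart in prkar2ab.

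The genes around these enzymes were read as a second list of 72 targets under 60 symbols, which holds beta arrestins, G protein receptor kinases, Raf and Ras-route genes, MAP kinase phosphatases, calmodulins, Creb genes and 14-3-3 genes. In limma 0 had an adjusted p under 0.05, and 1 had an unadjusted p under 0.05, or 1.39%, where all targets gave 4.41%. That one was gpsm2l, which lay under the random probes on all arrays. The groups did not overlap in 4 of the 72, or 5.56%, against 9.49% of all targets. The median of the list was 0.01, with 37 above and 35 below 0. A further 23 targets carry member symbols in capitals, as ADCY6 or PDE1A, which the pattern as written does not take. They fall under 12 symbols and gave 0 at an unadjusted p under 0.05 in limma. Their median was 0.06, with 16 above and 7 below 0 (50.5% of all targets were above). The groups did not overlap in 5 of these 23, or 21.7%, where all targets gave 9.49%. Lead brains were higher in PDE3B, GNAZ, PRKCD and RGSL2 and lower in ADCY6, all named after their values were seen, and RGSL2 lay under the random probes on all arrays.

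The authors' deposited table of 94 altered targets holds 0 of the 85. The arrays read 38489 targets, so the list is short, and the 0 was not read as a result about the members. The authors' deposited table does name 3 other targets by human symbols of these families. It gives MAPK11, a p38 kinase, a log2 ratio of 0.85 and a p of 0.0233, for target OTTDART00000008889, which the array files call zgc:86905. Log2 intensities there were 13.89, 13.40 and 13.43 in lead brains and 12.69, 13.04 and 12.44 in control brains. The groups did not overlap, and the difference fitted here was 0.85 ± 0.21. Its unadjusted p was 0.00527 and its adjusted p 0.958 in limma, for a target that the authors had listed as altered on these same arrays. For GNAI2, on target ENSDART00000079694 that has no symbol in the array files, the authors' deposited table gives −0.69. Intensities there were 10.15, 10.89 and 10.43 in lead brains and 11.29, 11.09 and 11.15 in control brains, without overlap. The difference was −0.69 ± 0.20, with an unadjusted p of 0.0119 and an adjusted p of 0.958 in limma, and 1 lead array lay under the random probes. For the third, MAPK12 on target OTTDART00000008891, the authors' deposited table gives 0.66. The difference fitted here was 0.66 ± 0.17, without overlap, with an unadjusted p of 0.00671 and an adjusted p of 0.958 in limma. This target lay under the random probes on all arrays, and the array files name its human homologue MAPK13.

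Marker intensities of cell types that a dissected brain can carry differed between arrays. Red cell markers (5 of 8 fixed genes measured, all above the random probes on every array) had summed intensities of 43153 to 84726 in lead brains and 90094 to 97175 in control brains. All 5 were lower in lead brains, and 3 had an unadjusted p under 0.05 in limma, where all targets gave 4.41%. Pituitary markers (7 of 9 measured, 1 above the random probes on every array) summed to 7150 to 16695 in lead brains and 9241 to 88096 in control brains, with control replicate 1 at the top. Neuronal markers (2 of 7 measured, the paralogs snap25a and snap25b) summed to 73927 to 78213 in lead brains and 70315 to 73491 in control brains. Their differences were 0.03 for snap25a and 0.14 for snap25b, with 0 at an unadjusted p under 0.05 in limma. Other fixed marker lists had median differences from −0.31 in vessels (2 of 4 measured) to 0.57 in cilia and ependyma (2 of 5 measured). Without control replicate 1 the median of the 85 targets was −0.01, and 4, or 4.71%, had an unadjusted p under 0.05, against 3.72% of all targets. In that fit 13, or 15.3%, did not overlap, against 19.1% of all targets. In whole brains fewer cells of a type and less RNA per cell cannot be told apart, and the part of these cell types in the values above was not tested.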

How the data were processed

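Total RNA of 6 brains was read on one-colour Cy3 arrays, 1 array per brain. The authors deposited a linear RMA intensity per target, with RMA named in the submitters' processing notes and its version not given in the sources used here. They also deposited probe intensities, including 27114 random control probes, and a table of altered targets with a signed fold score, a log2 ratio and a p-value, whose test is not stated in the file headers. Log2 was taken of 38489 target intensities without a filter or an added constant. The median target intensity per array was 2100.5 to 2211.5, and the 95th percentile of the random probes was 948.2 to 1311.7. Symbols are those of the files, and for 2663 of 3055 RefSeq targets those of RefSeq (GRCz12tu, names only). Coordinates are printed only on Zv7, the build of the files' scaffold names. The OTTDART targets' build is not given.

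Lead was compared with control with limma 3.58.1 in R 4.3.3 (two-sided, no covariates). The p-values were adjusted by Benjamini and Hochberg across the whole table, and 0.05 was the threshold. The fit was tested on simulated arrays of the lead and control groups (38489 targets). The adjusted test found 0% of 50 targets set to a 1.5-fold change. It found 10% of those set to 2-fold, 56% of those set to 3-fold and 72% of those set to 4-fold. Of its 77 calls 8 were false. The unadjusted test found 78% of the targets set to 1.5-fold. The number of brains limits the precision. Members, classes and lists were chosen with earlier results of these data known. By rule the text names, per class, up to 3 targets with an unadjusted p under 0.05 or the one with the smallest p, further targets of those genes, and the 3 with the largest SD. It also names any target in the authors' table or without overlap at 1.5-fold, of which there were 0. Other members were described after their values were seen. Alternatives were median centring, quantile normalization, a background filter, the ordinary test, probe medians, a replicate block, 1 target per symbol, and leaving out each array. Each sample is a separate fish. Tables were made in pandas 2.3.3 and numpy 2.4.6 under Python 3.11.15, and plots in matplotlib 3.10.9.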

Additional observations from a re-analysis of the deposited data

How the results depend on the processing

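No alternative gave a target with an adjusted p under 0.05. The count of 3 at an unadjusted p under 0.05 was 1 in the ordinary test, or 1.18%, against 4.3% of all targets. It was 0 to 7 when 1 array was left out, where all targets gave 2.76% to 8.05%. The 4 targets without overlap became 2 above the background filter, or 3.12%, against 10% of all targets. They became 9 when symbols in capitals were added (chosen after seeing the data), or 8.33% against 9.49% of all targets. With 1 array left out they became 6 to 23, where all targets gave 15.8% to 25.2% and the 23, or 27.1%, stood beside 25.2%. Groups of 2 overlap less by construction. With the median of the probe values of each target, the MAP3K median was −0.18 and the PKC median 0.13, each a shift of more than 1 SD between brains of the class median. With 1 array left out class medians shifted by less than their SD, but some by as much in size, as MAP2K (−0.0814 to 0.192) and G gamma (−0.101 to 0.126). The cause was not tested.

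The ordinary test, the block and the background filter cannot change a difference in this balanced design. Of the 207 other values recomputed for named targets, 189 kept their direction and 18 turned. With probe medians gnb5 (OTTDART00000015898) turned to −0.009, prkacab to −0.036 and prkar2ab to 0.324, and with median centring gng7 (OTTDART00000027569) turned to 0.008. With 1 array left out the range crossed 0 for gng7 (−0.05 to 0.044), prkar2ab (−0.612 to 0.242), prkab1 (OTTDART00000025827, −0.236 to 0.029), prkcb1 (ENSDART00000029451, −0.016 to 0.121), prkcq (−0.361 to 0.418), mapk6 (−0.687 to 0.054), map2k2 (−0.083 to 0.503) and camk1db (−0.254 to 0.08). Of the same-numbered arrays, the deviations of the first pair had a correlation of 0.306 and the others 0.033 and −0.047. Pairs with unlike numbers ran from −0.226 to 0.239. The labels give only a number, so the main fit had no block, and whether the first pair shared more was not tested. With the replicate number as a block 3 targets, or 3.53%, had an unadjusted p under 0.05 in limma, against 5.29% of all targets. Of these 1 was higher and 2 were lower. There rgs3a had an unadjusted p of 0.051 and map3k12 one of 0.0496.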
